A study of Mus musculus with 6 samples.

Results

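The semaphorins, plexins and neuropilins form one guidance system, and 33 of these genes and their Plxdc relatives were among the 18193 genes measured in sorted retinal ganglion cells of the mouse. They were taken by symbol, as all genes named Sema3 to Sema7 with a letter, Plxna to Plxnd with a number, Nrp1, Nrp2, Plxdc1 and Plxdc2. The symbols were set with earlier results of these data known, so the share of members called is a description of this set. It holds 20 ligands, all of them semaphorins, 11 receptors, which are 9 plexins and 2 neuropilins, and the 2 plexin domain containing genes, which are counted apart. Each gene was read from 1 probe set, the one with the highest mean log2 intensity over all arrays.

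RNA was measured on 6 arrays, 2 for each of 3 groups of cells, all from retinas of C57BL/6 mice at postnatal day 6. Retinas were dissociated with papain, cells were collected by flow cytometry, and the RNA went through 2 rounds of amplification. The Hb9 group and the Drd4 group are cells positive for both GFP and Thy1 from the mouse lines of those names, and each line is known to mark a type of direction-selective ganglion cell. The Thy1 group is cells positive for Thy1, a surface protein of ganglion cells, and served as the reference. Replicates came from different litters. The labels do not give the promoter behind each GFP transgene, how many animals made up a sample, or whether cells of the GFP types were among those of the Thy1 sort. The comparison asks which members of the system differ between ganglion cell types, and whether each type differs from ganglion cells at large.

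Semaphorins are secreted or membrane-bound proteins that repel or attract growing axons and dendrites. Most secreted ones bind a neuropilin, which holds the ligand, and signal through a plexin, which carries the message into the cell; membrane-bound ones and Sema3e can bind plexins directly. In the retina, class 5 and class 6 semaphorins and their plexin-A receptors are known to keep neurites within their proper layers of the inner plexiform layer, and class 3 semaphorins are known for steering axons.

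The upstream sequences of 3 members whose levels differed between groups are shown because they differ in base composition. They are the 250 bases before the RefSeq start site of each gene, from build GRCm38.p6, 5′ to 3′ on the plus strand. Capitals mark the GC box, GGGCGG on either strand, also where copies overlap. The windows are chr1:62703067-62703316 for Nrp2, chr15:32244563-32244812 for Sema5a and chr5:14025026-14025275 for Sema3e.
Nrp2: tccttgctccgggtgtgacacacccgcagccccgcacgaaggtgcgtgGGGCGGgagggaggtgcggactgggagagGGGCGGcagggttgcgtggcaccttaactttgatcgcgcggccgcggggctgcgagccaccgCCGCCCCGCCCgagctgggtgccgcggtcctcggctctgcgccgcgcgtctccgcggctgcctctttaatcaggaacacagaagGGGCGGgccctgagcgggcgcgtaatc
Sema5a: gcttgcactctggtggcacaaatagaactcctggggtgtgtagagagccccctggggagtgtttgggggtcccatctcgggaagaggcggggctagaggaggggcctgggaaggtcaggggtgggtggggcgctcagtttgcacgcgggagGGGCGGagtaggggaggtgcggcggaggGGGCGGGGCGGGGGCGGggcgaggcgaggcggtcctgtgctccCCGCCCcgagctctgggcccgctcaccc
Sema3e: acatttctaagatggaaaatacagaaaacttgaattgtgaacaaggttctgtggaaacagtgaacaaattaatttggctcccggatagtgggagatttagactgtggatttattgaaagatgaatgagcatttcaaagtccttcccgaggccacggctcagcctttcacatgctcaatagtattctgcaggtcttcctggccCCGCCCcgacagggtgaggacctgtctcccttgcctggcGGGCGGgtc

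The Nrp2 window has a GC content of 72.4%, 32 CpG pairs and 5 GC boxes. The Sema5a window has a GC content of 72.0%, 17 CpG pairs and 5 GC boxes. The Sema3e window has a GC content of 48.0%, 7 CpG pairs and 2 GC boxes. Over 32851 promoter windows of the same length the median GC content was 52.4% with a median of 6.00 CpG pairs, 32.7% held a GC box, and 1.93% held 5 or more. The windows of Nrp2 and Sema5a are richer in G and C than the median window, and that of Sema3e is a little poorer. RefSeq windows were matched for 26 of the 33 members, 37 windows in all. Of these 37, 27 held a GC box and 19 held an E-box, CANNTG, which 66.2% of all windows hold. The TATA box, TATAAA, was found in 0 of the 37 and in 12.4% of all windows, and TAATTA, a homeodomain core, in 0 of the 37 and in 4.84% of all windows. Both strands were searched, and matches of different motifs may overlap. A match describes these letters only.

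General ganglion cell markers were present in all groups, and markers of direction-selective types differed between them. All 11 measured ganglion cell markers lay above background on at least 1 array of the Drd4 and Thy1 groups, and all but Pou4f3 in Hb9, with summed intensities of 27467 to 30088 over the arrays. Of these 11, 1 was called in Hb9 against Thy1, as higher, beside 6.71% of all genes called. In Drd4 against Thy1, 3 were higher and 1 was lower, Isl1 at 3.34-fold, beside 5.47% of all genes. In Hb9 against Drd4, 1 was higher and 1 lower, beside 6.12% of all genes. Of 7 direction-selective markers, 4 were higher and 1 lower than in Thy1 in each GFP type, with Fstl4 and Trhr at background in Hb9 and Fstl4 also in Thy1. Replicate arrays correlated at 0.988 to 0.992 across genes and arrays of different groups at 0.963 to 0.981. Several sets of markers of other cells and states were higher on the Thy1 arrays. Of 13 microglia markers, 12 were lower than in Thy1 in both GFP groups, with summed intensities of 1785 to 2239 in Hb9, 1113 to 3242 in Drd4 and 7328 to 12573 in Thy1. Of 14 endothelial and pericyte markers, 5 were lower in Hb9 and 6 in Drd4, with sums of 1888 to 2294, 586 to 1454 and 8302 to 9398. The endothelial genes Pecam1, Tek, Tie1 and Cldn5 were at background in every group, and Cdh5 lay above it on 1 Thy1 array only. Kdr, Flt1 and Esam lay above background on all 6 arrays. Flt1 averaged 6.19, 6.11 and 7.17 in Hb9, Drd4 and Thy1, Esam 6.75, 6.66 and 7.18, and Kdr 6.48, 6.36 and 6.49. The pericyte genes Rgs5 and Pdgfrb lay above background on 5 arrays each. Of 9 dividing cell markers, 4 were lower in Hb9 and 6 in Drd4, with sums of 666 to 693, 476 to 490 and 789 to 1211 in Hb9, Drd4 and Thy1. Of 10 immediate-early genes, 5 were lower in each, with sums of 1905 to 2137, 1596 to 1819 and 2775 to 4099. Of 9 Muller glia and progenitor markers, 2 were lower in each, Apoe and Vim. Other sets did not show this. Of 10 amacrine markers, 1 was higher and 0 lower than in Thy1 in each GFP group. Of 8 photoreceptor and bipolar markers, limma called 0 in Hb9 and 0 in Drd4, where 0 and 1 had an unadjusted p below 0.05. Of 7 astrocyte and oligodendrocyte markers, 1 was higher and 1 lower in Drd4. In Hb9 limma called 0 of these 7, where 1 had an unadjusted p below 0.05. Between Hb9 and Drd4, limma called 0 of the 13 microglia markers and 0 of the 14 vascular ones, where 1 and 3 had an unadjusted p below 0.05. It called 1 dividing cell marker, Birc5, higher in Hb9, but Birc5 was at background on all arrays of both groups. Drd4 replicate 2 had log2 intensities of 5.01 for Rgs5 and 3.14 for Pdgfrb, and Drd4 replicate 1 had 9.50 and 5.93. The part of these cells and states in any difference from Thy1 given below was not tested. In such bulk samples, fewer cells of a type and less RNA per cell cannot be told apart.

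Most of the system gave signal above background in these sorted samples. A gene was called at background on an array when its log2 intensity did not exceed that of the highest unspiked bacterial control, which ranged from 4.95 to 5.38. On single arrays, 28 to 32 of the 33 members lay above this reference, beside 68.2% to 78.9% of all genes. Which cells in the samples held this RNA was not tested. Of the 33 members, 26 lay above this reference on all 6 arrays, 6 lay above it on some arrays only, and Sema3d on none. The 6 were Sema3b, Sema3c, Sema3g, Sema5a, Sema5b and Plxnb3. All 4 plexin-A genes, Nrp1, Nrp2, Plxnc1, Plxnd1 and every class 4 and class 6 semaphorin were above it throughout.

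**Figure D1:**
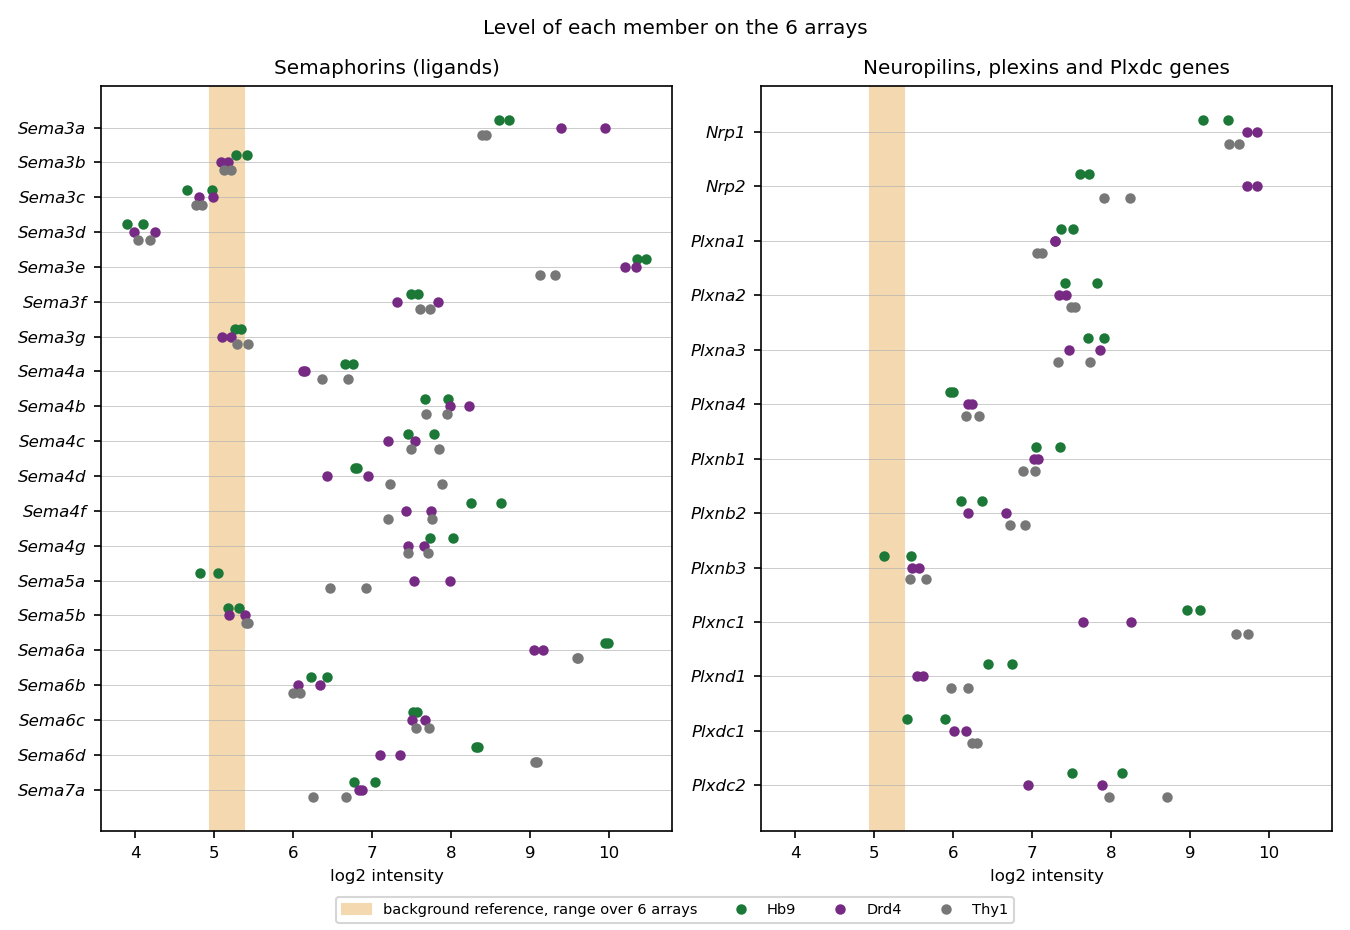
Log2 intensity of each of the 33 members on each of the 6 arrays, ligands on the left and receptors and Plxdc genes on the right, with green points for Hb9, purple for Drd4 and grey for Thy1. The shaded band spans the background reference, 4.95 to 5.38, and the pair of Hb9 points for Sema5a lies within or below it while the Drd4 and Thy1 points lie above.

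Of the 33 members, 9 were called in at least 1 of the 3 comparisons, and 7 were called between the 2 GFP types. The share of all genes called is given below for each comparison. It is not given for the 3 comparisons together, so the 9 members have no matching share beside them. In Hb9 against Thy1, Sema3e and Sema4f were higher and Sema5a and Sema6d lower. In Drd4 against Thy1, Nrp2, Sema3a, Sema3e and Sema5a were higher and Plxnc1 and Sema6d lower. In Hb9 against Drd4, Sema6a, Sema6d, Plxnc1 and Plxnd1 were higher and Nrp2, Sema3a and Sema5a lower. A difference was called at an adjusted p under 0.05 in limma, with p-values adjusted over all 18193 genes.

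Between Hb9 and Thy1, 4 of 33 members were called, 12.1%, beside 6.71% of all genes. The 2 that were higher stand beside 3.52% of all genes called higher, and the 2 that were lower beside 3.19% called lower. All 4 were ligands, of 20, and limma called 0 of the 11 receptors, although 5 of them had an unadjusted p below 0.05. The median log2 difference was 0.00 for ligands, -0.23 for receptors and 0.04 for all genes. Between Drd4 and Thy1, 6 of 33 were called, 18.2%, beside 5.47% of all genes. The 4 higher stand beside 1.51% of genes called higher and the 2 lower beside 3.96% called lower, and they were 4 ligands and 2 receptors. Medians were -0.03 for ligands, -0.03 for receptors and 0.02 for all genes. Between Hb9 and Drd4, 7 of 33 were called, 21.2%, beside 6.12% of all genes. The 4 higher stand beside 4.06% and the 3 lower beside 2.06%, and they were 4 ligands and 3 receptors, with 0 of the 2 Plxdc genes called in any comparison, where 1 had an unadjusted p below 0.05 in each. Medians were 0.12, 0.14 and 0.04. The called differences were in single genes while the medians of ligands and receptors lay between -0.23 and 0.14 on the log2 scale. Both comparisons against Thy1 use the same Thy1 arrays, so their values are given side by side and no overlap between them is read.

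**Figure D2:**
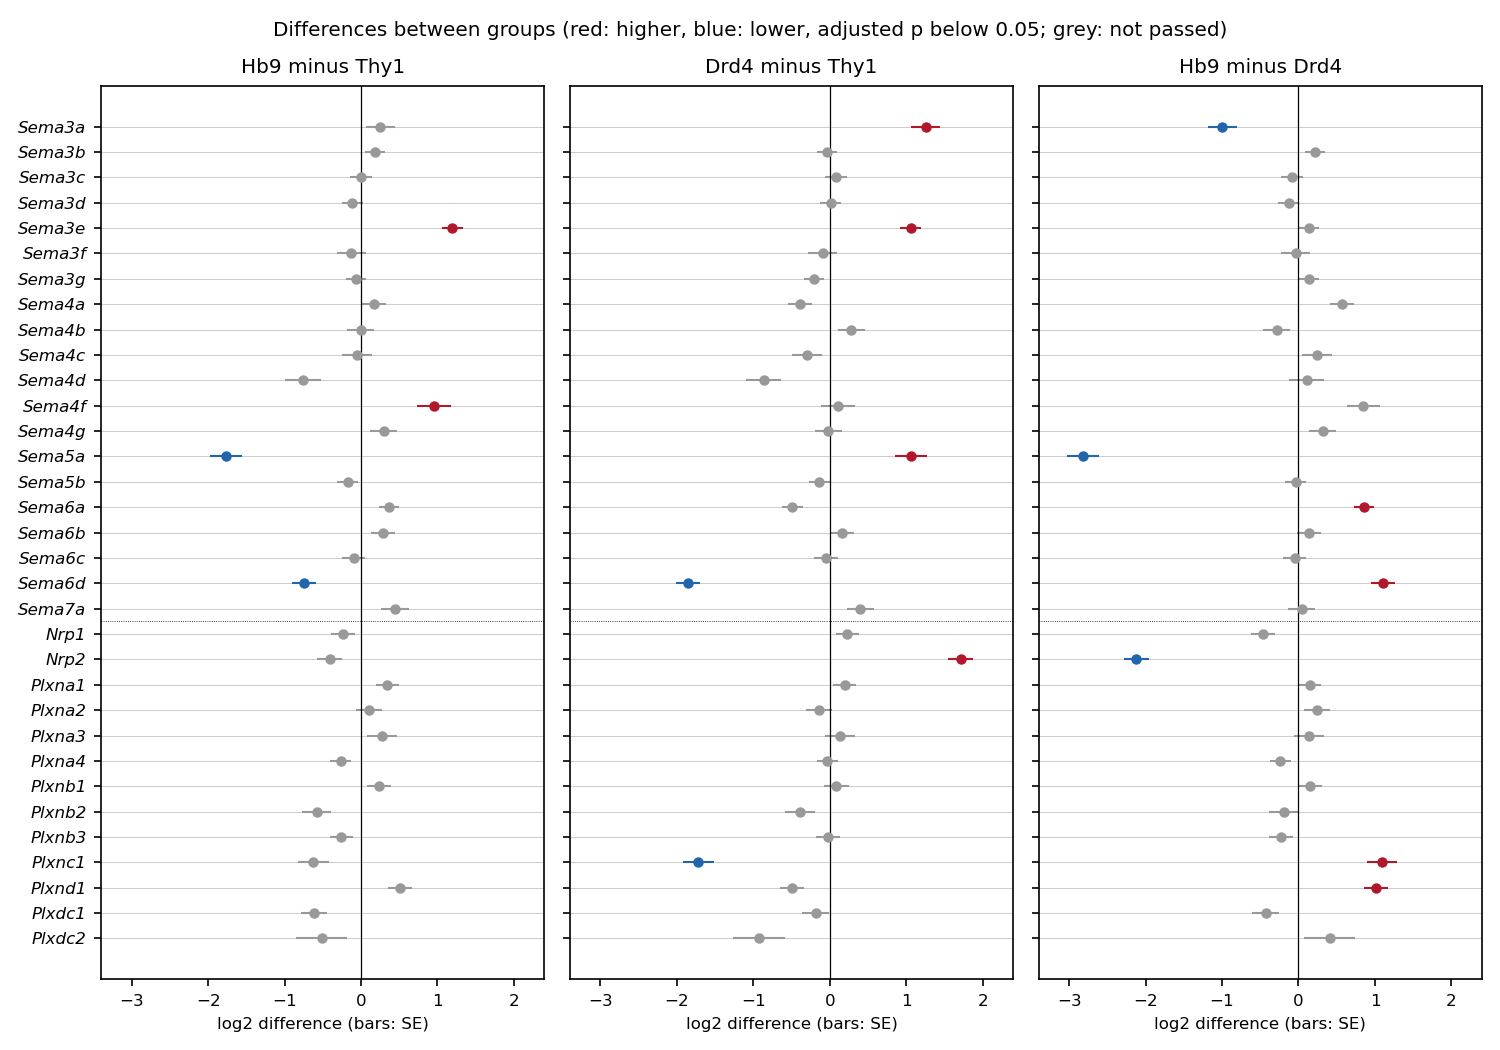
Log2 difference of each member in the 3 comparisons, with bars for the standard error from limma; red points are called higher and blue points lower at an adjusted p under 0.05, and grey points did not pass. The longest differences are those of Sema5a and Nrp2 between Hb9 and Drd4, -2.82 and -2.12, while most members lie close to 0.

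Among the secreted class 3 ligands, Sema3e was higher in both direction-selective types than in Thy1 cells. Sema3e signals through Plxnd1 without need of a neuropilin. Its log2 intensity was 10.35 and 10.47 on the Hb9 arrays, 10.35 and 10.21 on the Drd4 arrays, and 9.12 and 9.31 on the Thy1 arrays. All 4 GFP arrays were above both Thy1 arrays. The difference from Thy1 was 1.19 ± 0.14 (SE, n = 2 arrays a group) in Hb9, 2.29-fold with an adjusted p of 0.00153, and 1.06 ± 0.14 in Drd4, 2.08-fold with an adjusted p of 0.00127. Hb9 and Drd4 differed by 0.14 ± 0.14 (95% interval -0.17 to 0.44, adjusted p = 0.652), which did not pass. The 4 probe sets of Sema3e disagree for Hb9. Against Thy1, all 4 were positive in Drd4, at 0.93 to 1.21, and 3 of them passed, whereas in Hb9 they ran from 0.27 to 1.19 and only the chosen one passed. Between Hb9 and Drd4 the other 3 probe sets gave -0.57, -0.85 and -0.88, of which the last passed, so the order of the cell types depends on the probe set. With the mean of all probe sets the Hb9 difference from Thy1 was 0.53 and its adjusted p 0.0748.

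Sema3a, the repellent that acts through Nrp1 and plexin-A receptors, was highest in Drd4 cells. It measured 8.61 and 8.73 in Hb9, 9.95 and 9.39 in Drd4, and 8.44 and 8.39 in Thy1. Both Drd4 arrays were above the other 4, and Drd4 replicate 1 was the highest. Drd4 exceeded Thy1 by 1.25 ± 0.19, 2.38-fold with an adjusted p of 0.00303. Hb9 was 2.00-fold below Drd4, with an SE of 0.19 on the log2 scale and an adjusted p of 0.0125. That call was lost when an array was left out, with an adjusted p of 0.104 and 0.0546 when Hb9 replicates 1 and 2 were omitted in turn and 0.0745 without Drd4 replicate 1. Hb9 against Thy1 gave 0.25 ± 0.19 and an adjusted p of 0.478. The other 2 probe sets were above background on 1 array each, so both calls rest mainly on the chosen one. They gave 0.71 and 0.61 for Drd4 minus Thy1, and neither passed. For Hb9 minus Drd4 they gave -0.96, which passed with Hb9 at background, and -0.39, which did not.

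The other class 3 ligands showed no called difference. Sema3f, which binds Nrp2, averaged 7.54, 7.57 and 7.66 in Hb9, Drd4 and Thy1, with differences no larger in size than 0.13. Sema3b, Sema3c, Sema3d and Sema3g had group means between 3.99 and 5.36, at or near the background reference, so little can be read from them. Sema3d, Sema3a, Sema3e and Sema3c lie in that order on chromosome 5, with 0, 3 and 15 protein-coding genes between neighbours. Within that run the calls fell on Sema3a and Sema3e, and the outer members were at or near background. Sema3b and Sema3f lie on chromosome 9 with 3 genes between them.

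Class 4 semaphorins are membrane-bound, and several act on plexin-B receptors. Sema4f was the one member of 6 to be called, as higher in Hb9 than in Thy1. It measured 8.63 and 8.25 in Hb9, 7.43 and 7.75 in Drd4, and 7.21 and 7.76 in Thy1. Both Hb9 arrays were above the other 4, while the Drd4 and Thy1 arrays overlapped. The difference from Thy1 was 0.96 ± 0.22, 1.94-fold with an adjusted p of 0.0303. Against Drd4 it was 0.85 ± 0.22 with an adjusted p of 0.0513, and it passed when Drd4 replicate 2 or either of Thy1 replicates 1 and 2 was omitted, at 0.0429, 0.0290 and 0.0293. The call was lost under 4 of 16 alternatives. Omitting Hb9 replicates 1 and 2 in turn gave an adjusted p of 0.222 and 0.0578 and omitting Thy1 replicate 1 gave 0.225, while the mean of both probe sets gave 0.0506.

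Sema4d, a ligand of Plxnb1, averaged 6.79, 6.69 and 7.55 in Hb9, Drd4 and Thy1. Its differences from Thy1 were -0.76 ± 0.23 and -0.87 ± 0.23, with adjusted p of 0.0840 and 0.0674, neither of which passed. The Thy1 arrays of Sema4d lay apart, at 7.88 and 7.23. Without Thy1 replicate 2, the differences became -1.09 and -1.19 and passed, with adjusted p of 0.0292 and 0.0218. Drd4 minus Thy1 also passed without Drd4 replicate 1, at -1.12 with an adjusted p of 0.0220. Hb9 minus Thy1 also passed without Drd4 replicate 1 or 2, at 0.0411 and 0.0417. With the replicate number as a block, Sema4d passed in both, at 0.0493 and 0.0294. Of the 3 probe sets of Sema4d, 1 was at background on all arrays. Another, above it on 5 arrays, gave -0.36 in Hb9 minus Thy1 and -0.15 in Drd4 minus Thy1, and passed in neither. Sema4a had means of 6.71, 6.14 and 6.53 in Hb9, Drd4 and Thy1, and Hb9 minus Drd4 was 0.57 ± 0.16 with an adjusted p of 0.0661. Sema4b, Sema4c and Sema4g differed by at most 0.32 in size in any comparison and passed in none.

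Sema5a showed the largest difference of any member and was the one ligand that was called in opposite directions against Thy1 in the GFP types. Sema5a is a membrane protein with thrombospondin repeats, known in the retina as a repellent for neurites that carry Plxna1 and Plxna3. It measured 4.81 and 5.05 in Hb9, 7.99 and 7.52 in Drd4, and 6.93 and 6.47 in Thy1. Both Hb9 arrays were at background, both Drd4 arrays were the highest, and the Thy1 arrays lay between, with no overlap. The measured difference of Hb9 from Thy1 was -1.76 ± 0.21, with an adjusted p of 0.00178. Since Hb9 was at background, the fold is a bound, at least 2.60-fold lower, taken against the higher of the background reference and the gene's own signal on each Hb9 array. Drd4 exceeded Thy1 by 1.06 ± 0.21, 2.08-fold with an adjusted p of 0.0136. Hb9 minus Drd4 was -2.82 ± 0.21, at least 5.42-fold lower, with an adjusted p of 4.45e-05.

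Of the 4 probe sets of Sema5a, 2 were at background on all arrays. The other one above background in Drd4 and Thy1 was, like the chosen one, at background on both Hb9 arrays. It had Hb9 at least 1.78-fold below Drd4, while against Thy1, itself little above background, the bound was at least 1.06-fold. In Drd4 against Thy1 it gave 0.74 and did not pass. The call of Sema5a in Drd4 against Thy1 was lost without Drd4 replicate 1, at an adjusted p of 0.0545, without Thy1 replicate 2, at 0.106, and when its probe sets were averaged, at 0.159. Both calls that involve Hb9 passed under all 16 alternatives, with values of -0.88 against Thy1 and -1.34 against Drd4 when the probe sets were averaged. Sema5b, the close relative that shares these receptors, averaged 5.24, 5.28 and 5.42 in Hb9, Drd4 and Thy1, near background.

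Class 6 semaphorins are transmembrane ligands of plexin-A receptors. Sema6a, which pairs with Plxna2 and Plxna4 in retinal lamination, measured 9.98 and 9.95 in Hb9, 9.05 and 9.17 in Drd4, and 9.59 and 9.60 in Thy1. The 3 groups did not overlap, with Hb9 highest and Drd4 lowest. Hb9 exceeded Drd4 by 0.86 ± 0.13, 1.81-fold with an adjusted p of 0.00446. The steps on either side of Thy1 did not pass, at 0.37 ± 0.13 for Hb9 with an adjusted p of 0.132 and -0.49 ± 0.13 for Drd4 with an adjusted p of 0.0697. Without Hb9 replicate 1 the Hb9 to Drd4 call had an adjusted p of 0.0568. A second Sema6a probe set above background on all arrays gave -0.20 for that difference, and the mean over all 3 probe sets gave 0.11 with an adjusted p of 0.653.

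Sema6d, a ligand of Plxna1, differed between all 3 groups. It measured 8.31 and 8.34 in Hb9, 7.35 and 7.10 in Drd4, and 9.06 and 9.09 in Thy1. Thy1 was highest and Drd4 lowest, with no overlap. Drd4 minus Thy1 was -1.85 ± 0.15, 3.61-fold lower with an adjusted p of 0.000102. Hb9 minus Thy1 was -0.75 ± 0.15, 1.68-fold lower with an adjusted p of 0.0207, and Hb9 exceeded Drd4 by 1.10 ± 0.15, 2.15-fold with an adjusted p of 0.00236. The smaller step, Hb9 against Thy1, was lost without any one of the 4 arrays compared, with adjusted p of 0.146 and 0.0982 without Hb9 replicates 1 and 2, and 0.0992 and 0.0547 without Thy1 replicates 1 and 2. These calls rest on 1 of 4 probe sets. A second one above background on all arrays gave -0.09, -0.04 and -0.05 in Hb9 against Thy1, Drd4 against Thy1 and Hb9 against Drd4. With the mean of all probe sets, the differences of Hb9 from Thy1 and from Drd4 did not pass, at adjusted p of 0.189 and 0.295, and Drd4 minus Thy1 was -0.48 and passed. Sema6b and Sema6c passed in no comparison, and their largest difference in size was 0.29.

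Sema7a, a lipid-anchored ligand of Plxnc1 and of integrins, averaged 6.90, 6.86 and 6.46 in Hb9, Drd4 and Thy1. Its differences from Thy1, 0.44 ± 0.18 and 0.40 ± 0.18, had adjusted p of 0.171 and 0.338.

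Of the receptors, Nrp2 stood out as higher in Drd4 cells. Nrp2 is the neuropilin that binds Sema3f. It measured 7.61 and 7.72 in Hb9, 9.85 and 9.73 in Drd4, and 8.24 and 7.91 in Thy1. Both Drd4 arrays lay well above the other 4, and the Hb9 arrays were the lowest. Drd4 exceeded Thy1 by 1.71 ± 0.16, 3.27-fold with an adjusted p of 0.00021. Hb9 minus Drd4 was -2.12 ± 0.16, 4.35-fold lower with an adjusted p of 5.96e-05. Hb9 minus Thy1 was -0.41 ± 0.16 (95% interval -0.78 to -0.04) and did not pass, with an adjusted p of 0.171. Over the 4 probe sets of Nrp2 that difference ran from -0.41 to 0.04, and none passed. The 3 probe sets of Nrp2 above background on all arrays passed in both comparisons that involve Drd4, at 1.54 to 1.71 over Thy1 and -2.12 to -1.57 for Hb9 minus Drd4. The remaining one was at background on both Hb9 arrays and 1 Thy1 array, and had Hb9 at least 2.00-fold below Drd4.

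Nrp1, the neuropilin for Sema3a, measured 9.16 and 9.48 in Hb9, 9.85 and 9.72 in Drd4, and 9.49 and 9.62 in Thy1. The groups did not overlap, in the same order as for the chosen probe set of Nrp2, but no difference passed. Hb9 minus Drd4 was -0.46 ± 0.15 with an adjusted p of 0.121. All 4 probe sets of Nrp1 were negative for that difference, from -1.04 to -0.46, and 1 of them passed.

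Plxnc1, the receptor of Sema7a, was lower in Drd4 cells. It measured 9.12 and 8.96 in Hb9, 8.25 and 7.64 in Drd4, and 9.59 and 9.74 in Thy1. The groups did not overlap, and Drd4 replicate 2, the array with the lowest pericyte markers, was the lowest. Drd4 minus Thy1 was -1.72 ± 0.20, 3.29-fold lower with an adjusted p of 0.000677. Hb9 exceeded Drd4 by 1.09 ± 0.20, 2.13-fold with an adjusted p of 0.0109. Hb9 minus Thy1 was -0.62 ± 0.20 and did not pass, with an adjusted p of 0.0957, but passed without Drd4 replicate 1 or 2, at 0.0338 and 0.0328. Of 6 probe sets, 4 were at background on all arrays. The other one above background gave 0.80 for Hb9 minus Drd4, which passed, and -0.55 for Drd4 minus Thy1, which did not. For Hb9 minus Thy1 it gave 0.25, opposite in sign to the chosen one, and did not pass. With the mean of all 6, the adjusted p was 0.0511 in Drd4 against Thy1 and 0.119 in Hb9 against Drd4, and the second was 0.0965 without Hb9 replicate 1.

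Plxnd1, the receptor of Sema3e, was higher in Hb9 than in Drd4. It measured 6.75 and 6.43 in Hb9, 5.62 and 5.54 in Drd4, and 6.18 and 5.97 in Thy1. Thy1 lay between the GFP types, with no overlap. Hb9 exceeded Drd4 by 1.01 ± 0.16, 2.01-fold with an adjusted p of 0.00474, and the adjusted p was 0.0522 without Hb9 replicate 1. Against Thy1 the differences were 0.51 ± 0.16 in Hb9 and -0.50 ± 0.16 in Drd4, with adjusted p of 0.0849 and 0.135, neither passing. Plxnd1 has 1 probe set.

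The plexin-A receptors, through which neuropilins and class 6 semaphorins signal, differed little. The Plxna1 means in Hb9, Drd4 and Thy1 were 7.44, 7.29 and 7.09. For Plxna2 they were 7.62, 7.38 and 7.52, Plxna3 had 7.81, 7.67 and 7.53, and Plxna4 had 5.98, 6.21 and 6.24. The largest difference in size among these 4 was 0.35 ± 0.15, for Plxna1 in Hb9 against Thy1 (95% interval 0.01 to 0.68, adjusted p = 0.198). One unchosen probe set of Plxna2 passed in Hb9 minus Drd4, at 0.86, where the others did not.

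The plexin-B receptors of class 4 semaphorins also passed in no comparison. Plxnb1 had means of 7.20, 7.05 and 6.96 in Hb9, Drd4 and Thy1, and Plxnb2 had 6.23, 6.42 and 6.81. Plxnb2 had the largest difference of these, -0.58 ± 0.19 in Hb9 against Thy1, with an adjusted p of 0.102, or 0.0492 without Drd4 replicate 2. Plxnb3 had means of 5.29, 5.52 and 5.55, near background.

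The plexin domain containing genes resemble plexins in part of their sequence and are not known as semaphorin receptors. Plxdc1 had means of 5.65, 6.08 and 6.27 in Hb9, Drd4 and Thy1, and Hb9 minus Thy1 was -0.61 ± 0.17 with an adjusted p of 0.0651, which became 0.0470 and 0.0475 without Drd4 replicates 1 and 2 and 0.0492 with the replicate block. Plxdc2 spread more within groups, at 7.82 ± 0.45 (SD, n = 2) in Hb9, 7.42 ± 0.67 in Drd4 and 8.34 ± 0.51 in Thy1, and passed in no comparison, but without Drd4 replicate 1 Drd4 minus Thy1 was -1.40 and passed, with an adjusted p of 0.0212. All 3 of its probe sets gave negative differences from Thy1 in both types, and 1 of them passed, at -1.14 in Hb9 and -1.53 in Drd4.

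**Figure D3:**
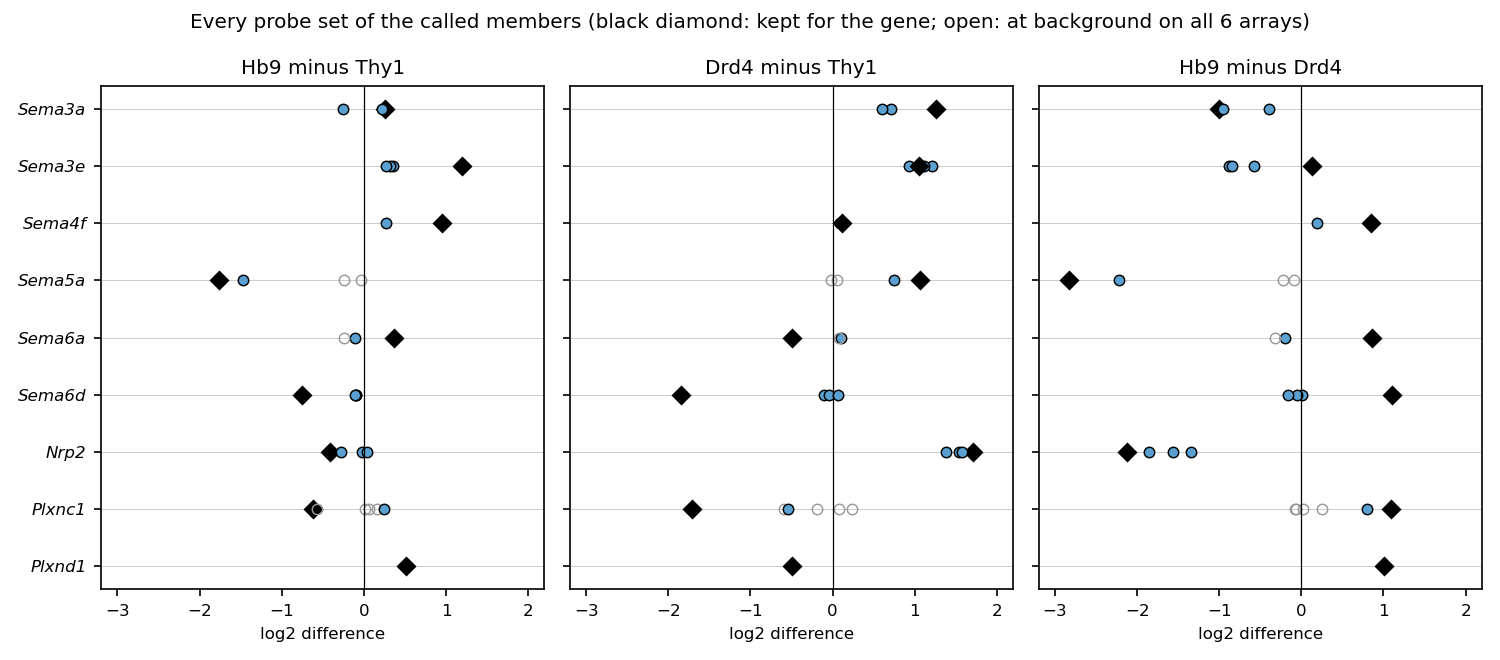
Log2 difference of every probe set of the members called in at least 1 comparison, in the 3 comparisons. Black diamonds are the probe sets kept for the gene, blue circles the others, and open circles those at background on all 6 arrays. The 3 probe sets of Nrp2 above background throughout lie together, from 1.54 to 1.71 in Drd4 minus Thy1, while those of Sema6d spread from -1.85 to 0.06.

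The members have 83 probe sets, and 6 members have 1 each. The 4 probe sets of Nrp2 had the same sign in both comparisons that involve Drd4, and those of Sema6d, Sema6a and Sema3e did not in Hb9 against Drd4. The cause of that spread was not tested.

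The co-receptors and intracellular effectors of the pathway were read from a separate list of 44 genes, of which 42 were measured. In each comparison 3 of 42 were called, 7.14%, close to the share of all genes. Itga1, an integrin chain that can bind Sema7a, measured 5.83 and 5.82 in Hb9, 5.05 and 4.64 in Drd4, and 7.22 and 7.84 in Thy1. Its differences from Thy1 were -1.70 ± 0.21 in Hb9 and -2.68 ± 0.21 in Drd4, with adjusted p of 0.00219 and 7.97e-05. In Drd4 it was above background on 1 array only, so the sizes of the differences that involve Drd4 are uncertain. Hb9 exceeded Drd4 by 0.98 ± 0.21 with an adjusted p of 0.0250. That call was lost when Hb9 replicate 1 or 2 or Drd4 replicate 2 was omitted, at adjusted p of 0.126, 0.101 and 0.0841, and with its probe sets averaged, at 0.0502.

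Chl1, a cell adhesion molecule that joins Nrp1 in the response to Sema3a, was lower in Drd4 than in Thy1, at -1.04 ± 0.15 with an adjusted p of 0.00202, and higher in Hb9 than in Drd4, at 0.89 ± 0.15 with an adjusted p of 0.00582. Without Hb9 replicate 1 the second had an adjusted p of 0.0701, and with its probe sets averaged Chl1 had 0.0866 in the first comparison and 0.627 in the second. Dpysl4, a collapsin response mediator, and Limk2, a kinase of cofilin, were higher in Hb9 than in Thy1 by 0.86 ± 0.19 and 0.80 ± 0.18, with adjusted p of 0.0263 and 0.0284. Leaving out one of the Hb9 replicates 1 and 2 or Thy1 replicate 1 lost Dpysl4, at 0.216, 0.0539 and 0.187, as did averaging its probe sets, at 0.0550. Limk2 was lost without Hb9 replicate 1 or Thy1 replicate 1, at 0.233 and 0.203. Rras, a small GTPase that plexins switch off, was lower in Drd4 than in Thy1, at -0.60 ± 0.15 with an adjusted p of 0.0404, and it did not pass with any one array left out, at adjusted p of 0.0560 to 0.215. Ranbp9, which binds plexin-A, was lower in Hb9 than in Drd4, at -1.20 ± 0.27 with an adjusted p of 0.0301, and was lost when Hb9 replicate 1 or 2 or Drd4 replicate 1 was omitted, at 0.197, 0.0559 and 0.146.

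**Figure D4:**
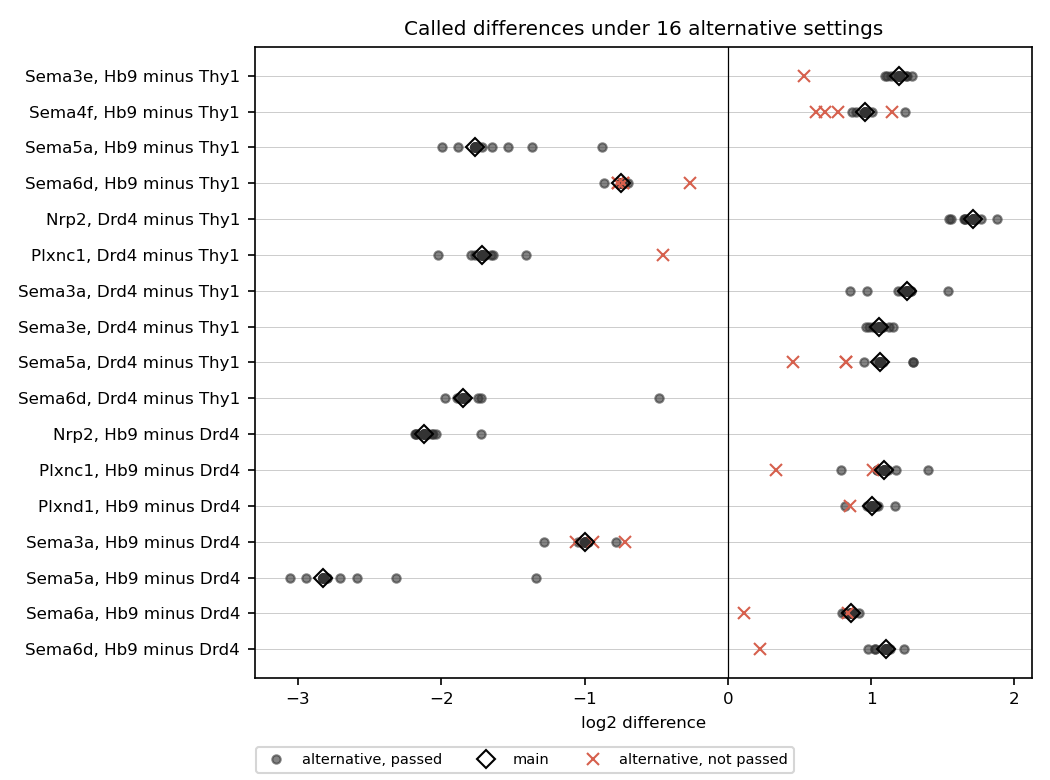
Each of the 17 called differences of members under 16 alternative settings; diamonds are the reported value, dots are alternatives that passed and crosses are those that did not. No value changed sign, and 7 of the 17 calls have no cross.

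The 17 calls, made in 9 members, differed in how far they held. Under 16 alternative settings 7 of them passed each time and 10 were lost at least once, and none changed sign. The 7 were Nrp2, Sema3a, Sema3e and Sema6d in Drd4 against Thy1, Sema5a in Hb9 against Thy1, and Nrp2 and Sema5a in Hb9 against Drd4. The setting that lost most, 8 calls, was the mean of all probe sets in place of the highest, and the array whose absence lost most, 6 calls, was Hb9 replicate 1.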

How the data were processed

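The authors deposited 1 table of probe set intensities on a linear scale for the 6 arrays. How the scans were summarised, corrected and normalised is, for these arrays, not given in the sources used here. The table has 45101 probe sets, where 64 are controls and 34945 have 1 gene in the platform annotation, 932 several and 9160 none. Symbols were checked through Entrez identifiers against RefSeq for 34741 probe sets, and 0 changed. Values were taken to log2, and the probe set with the highest mean was kept for each of 18193 genes.

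A mean per group was fitted to all 6 arrays with limma 3.58.1 in R 4.3.3, with an intensity trend and 3 residual degrees of freedom; the replicate number was not in the model. Tests were two-sided, with Benjamini-Hochberg adjustment over all genes and a threshold of 0.05. Errors are standard errors. Precision is limited by the number of arrays. Each p-value sets a difference against the spread between replicate arrays. That spread is drawn towards the spread of other genes of like intensity, with 6.98 prior degrees of freedom. An exact permutation test of 2 against 2 cannot go below a p of 0.333 and was not used. The fit was tested on simulated data.

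Members called at least once and both neuropilins are given with all array values, other members by group means or ranges, and of the partner list up to 8 called genes per comparison are named. The members, lists and rules were chosen with earlier results of these data known. Upstream sequences are from RefSeq, GRCm38.p6. The alternatives were quantile normalisation, median centring, the mean of all probe sets, dim genes left out, no trend, robust moderation, array weights, an offset of 16, only the compared groups, a replicate block, and each array left out.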

Additional observations from a re-analysis of the deposited data

How the results depend on the processing

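The number of called members moved most in Hb9 against Thy1, from 4 to 1 with the mean of all probe sets and to 8 with only the compared groups in the model, and between 2 and 8 with an array left out. In Drd4 against Thy1 it was 6, with 4 for the mean of all probe sets and from 6 to 7 with an array left out. In Hb9 against Drd4 it was 7 and ranged from 3 to 8, the lowest without Hb9 replicate 1. Called partner genes went from 3 to 5 in Hb9 against Thy1 and from 3 to 1 in Hb9 against Drd4 with the mean of all probe sets, and ranged with an array left out from 1 to 5 and from 0 to 4. Members that passed under an alternative only include Plxdc1, Plxnb2, Plxnc1 and Sema4d in Hb9 against Thy1, with 1 or both Drd4 arrays left out of the fit, with adjusted p of 0.0306 to 0.0499. Sema4f in Hb9 against Drd4 passed in 9 alternatives, at adjusted p of 0.0286 to 0.0498. Nrp1 passed there when its probe sets were averaged, at 0.0338, Sema6a in Drd4 against Thy1 with quantile normalisation, at 0.0446, and Plxdc2 in Drd4 against Thy1 without Drd4 replicate 1, at 0.0212. The cause of these changes was not tested.

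With the replicate number as a block, 6, 7 and 7 members were called in Hb9 against Thy1, Drd4 against Thy1 and Hb9 against Drd4, and 3 partner genes in each. The members it added were Plxdc1 and Sema4d in Hb9 against Thy1, at adjusted p of 0.0492 and 0.0493, and Sema4d in Drd4 against Thy1, at 0.0294. The numbers are not said to pair the samples across groups. Deviations of same-numbered arrays correlated across genes at -0.28 for Hb9 and Drd4, -0.19 for Hb9 and Thy1, and 0.37 for Drd4 and Thy1. With a single replicate difference in each group, these values cannot show whether samples were paired. Groups of 2 arrays are too small to test for an outlying array, and genes near the background reference carry little information.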
